A study of Ciona robusta with 3 samples.

Results

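The 31 genes described here are the transcription factors of Ciona robusta that the study's profile clustering placed in its clusters 3 and 4, with 13 factors in cluster 3 and 18 in cluster 4, out of 159 clustered factors and 17822 annotated genes. The clusters were computed by the authors from expression along the cardiopharyngeal trajectory of the same time-series library that is described below. The factors were therefore chosen by measured values, and their fall and return over the time series is given as a description, without a test. Cells carrying CRISPR reagents came from separate libraries that the clustering did not use.

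The study followed the B7.5 lineage, the embryonic cells that give rise to the cardiopharyngeal progenitors (trunk ventral cells, TVCs) and to the anterior tail muscle. Eggs pooled from several animals were electroporated with reporters under the Mesp enhancer, which marks this lineage, each batch of embryos also receiving its own pair of transcribed sample barcodes. Embryos of 10 ages, 5 to 14 hours post-fertilization (hpf) at hourly steps, were pooled after dissociation, sorted for the reporter and sequenced as 1 droplet library of 2569 cell barcodes. In 2 further libraries, of 231 and 638 cell barcodes, embryos at 12 hpf carried lineage-specific Cas9 with guides against Foxf, Gata4/5/6 or Foxtun4, or with Tyrosinase guides as control, the Mesp enhancer driving Cas9 in all 4 conditions. Electroporated transgenes are inherited mosaically. Cells counted in a condition expressed its barcode reporters, whereas the presence of Cas9 and guides in each of them was not measured. No cell barcode was shared between the time series and the CRISPR libraries, whereas 7 were shared between the CRISPR repeats. Of these, 2 were assigned to a condition in repeat 1 and 2 in repeat 2, but only 1 in both. That 1 was assigned to Foxf CRISPR, with 42880 gene UMIs in repeat 1 and 563 in repeat 2.

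Cells were grouped by the share of their gene UMIs (unique molecular identifiers, counted transcripts) that came from 4 muscle genes, Smyd1 (KY.Chr6.594) and 3 myosin light chain genes of the Myl1 type. Levels are summed UMIs scaled to 1000000 gene UMIs (CPM) of all cells of a class and time point. Of 1353 time-assigned cells, 657 lay under a muscle share of 1% and 696 at or above it, and 298 lay between 0.5 and 2%, so the classes are ranges of a continuous measure and not cell types. From 6 to 13 hpf the cells under 1% numbered 14, 24, 17, 5, 238, 137, 112 and 89. No direction is drawn from the time points with fewer than 20 cells (6, 8 and 9 hpf), and the windows of 6-8, 9-10 and 11-13 hpf held 55, 243 and 338 such cells.

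The early cells under 1% differed from the later ones in more than age. At 7 and 8 hpf only 5 of 24 and 5 of 17 of them carried at least 10 barcode pair UMIs. Their median over cells of the 6 TVC markers was 20.8 and 55.2 CPM, against 156 and 338 CPM in the cells at or above 1%. Summed over cells, the 5 markers of other cell types reached 1216 and 945 CPM at 7 and 8 hpf and 11.2 to 21.3 CPM at 11 to 13 hpf, with each of the 5 above 0 at 7 and 8 hpf and at 10 to 12 hpf. TVC markers summed to 205 and 251 CPM at 7 and 8 hpf and to between 8726 and 9839 CPM at 11 to 13 hpf. The cells under 1% at 10 hpf also differed from those at 11 to 13 hpf. Their TVC markers summed to 5543 CPM. Their muscle markers summed to 4994 CPM, against 2287, 1413 and 2373 CPM at 11, 12 and 13 hpf. At 10 hpf 120 of 238 had a muscle share of 0.5% or more, against 6 of 137, 0 of 112 and 5 of 89 later. The part of all these differences in the factors' time courses, the late rise included, was not tested. Values of a second class, cells under a 3% muscle share with at least 10 pair UMIs, are therefore given for some factors and drawn for 28. This class held 267, 318 and 334 cells in the 3 windows and was chosen after the values were seen. It also differed between ages in more than age. In cells under 3%, before the pair limit, muscle markers summed to 20540 CPM at 7 hpf and 1413 CPM at 12 hpf. TVC markers there summed to 407 and 9839 CPM. The part of this shift in the values of the second class was not tested.

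The 2 clusters hold factors of several DNA-binding families. Ets, forkhead and Irf proteins bind DNA at short core motifs through winged-helix folds, and Ets factors are the usual nuclear end point of FGF and MAPK signalling, which in Ciona separates cardiopharyngeal progenitors from tail muscle. HMG-box proteins bend DNA and open chromatin, basic helix-loop-helix and bZIP proteins bind as dimers, and TALE homeodomain proteins act with Hox and with each other. Names are the annotation's matches to vertebrate genes. The counts and medians given here cover all 31 factors, of which 28 are described by name. For 2 of these the name and the study's listing differ: the gene listed as Hmg20 (an HMG-box protein) matches Slc25a26, a mitochondrial carrier, and Tfdp1 is also listed as Tcf4. Both models may join 2 genes, and their counts cannot be divided.

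In cells under 1%, the share of factors that were lower at 9-10 hpf was that of all genes. The number higher at 11-13 than at 9-10 hpf exceeded the number that had been lower. A fall or a return is called here when the CPM of a window differs from the previous one by over 1.5-fold. A return means only a higher level at 11-13 than at 9-10 hpf, with or without a fall before it. At 9-10 hpf, 10 of 31 factors were lower than at 6-8 hpf by that measure, where 32.3% of the 9532 genes with at least 20 UMIs were. At 11-13 hpf, 14 of 31 were higher than at 9-10 hpf, against 20.6% of all genes, and 6 (Elf4, Foxn3, Irf2, Pknox2, Mitf and Tox2) did both, against 6.18% of all genes. With a muscle share limit of 0.5%, 8 of 31 factors were higher at 11-13 hpf, with a median log2 ratio to 9-10 hpf of 0.35. Since the same cells chose the factors, these counts and shares are printed without inference. The median log2 ratio of 9-10 to 6-8 hpf was -0.27 over the factors and -0.20 over all genes, and that of 11-13 to 9-10 hpf was 0.52 over the factors and 0.05 over all genes. TMM scaling of the windows moved the median of all genes at 9-10 hpf to 0.10 and that of the factors to 0.03. Then 5 factors fell, 14 returned and 3 did both, the last against 4.5% of genes.

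Without a threshold, 30 of 31 factors lay above their 9-10 hpf level at 11-13 hpf, as did 5046 of 9532 genes. At 9-10 hpf 24 of 31 lay below their 6-8 hpf level, as did 5673 of 9532 genes. Cluster 3 held 7 of the falls and 5 of the returns among 13 factors, cluster 4 held 3 falls and 9 returns among 18. All intervals on time points and windows cover counting error in 1 library, not variation between batches of embryos.

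**Figure D1:**
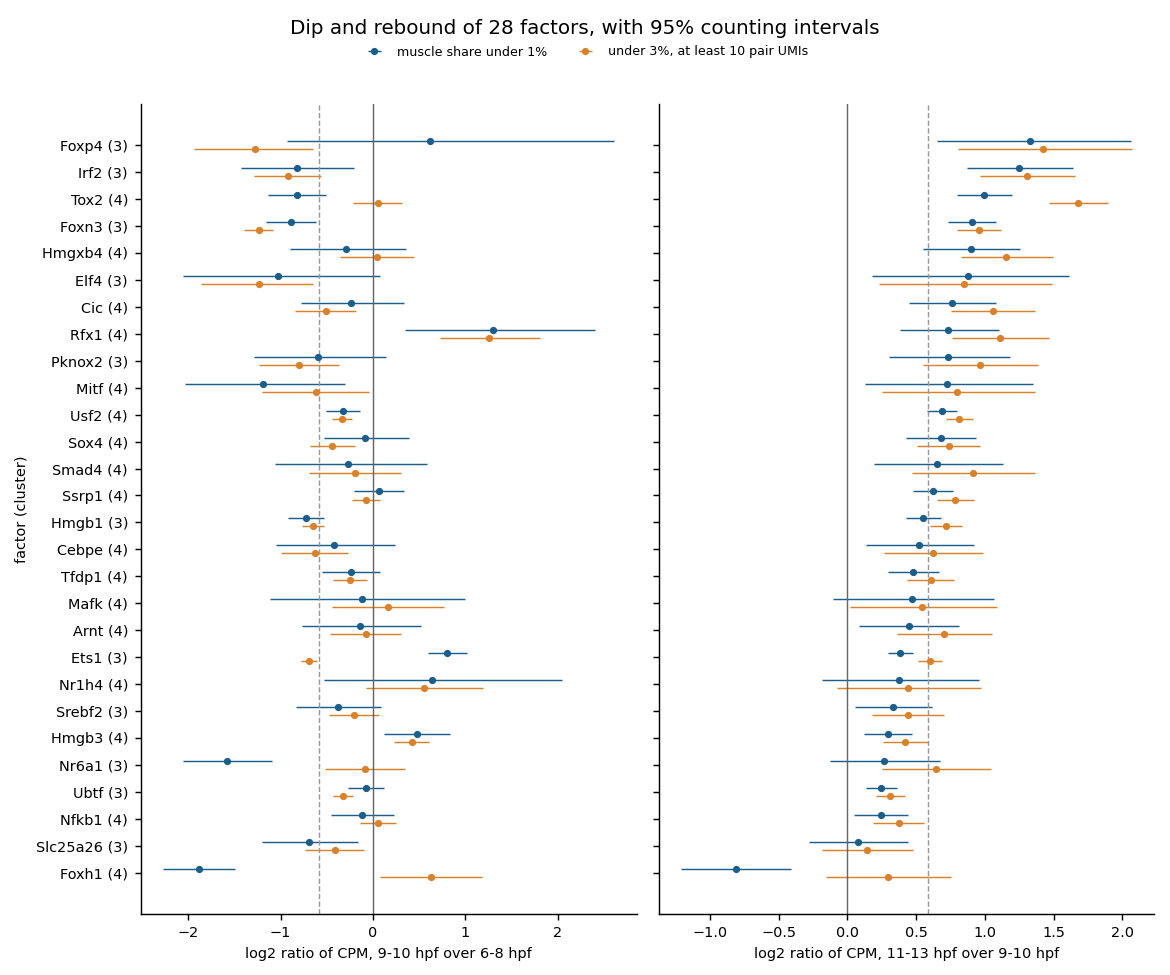
Log2 ratios of CPM for 28 of the factors (cluster in brackets), 9-10 over 6-8 hpf on the left and 11-13 over 9-10 hpf on the right, with 95% counting intervals. Blue marks cells under a 1% muscle share and orange cells under 3% with at least 10 barcode pair UMIs; dashed lines mark 1.5-fold, and 27 of 28 blue and 28 of 28 orange points lie above 0 on the right.

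In the better-barcoded cells under 3%, 9 of 31 factors fell at 9-10 hpf (25.9% of 9909 genes), 20 returned at 11-13 hpf (26.6%) and 9 did both (6.85%). These 9 were Elf4, Ets1, Foxn3, Foxp4, Hmgb1, Irf2, Pknox2, Cebpe and Mitf, of which 7 belong to cluster 3. All 31 factors were above their 9-10 hpf level at 11-13 hpf in these cells, by a median of 0.70 on the log2 scale, where 5845 of 9909 genes were above with a median of 0.15 over all genes. Summed over all assigned cells with no limit on muscle share, 14 factors fell and returned, where 12.4% of genes did, but the muscle-rich share of cells differed between the windows (373 of 428, 275 of 518 and 48 of 386 cells at or above 1%).

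The other clusters of factors were counted in the same way in the cells under 1%. In cluster 0, 21 of 27 factors fell at 9-10 hpf and 2 were higher at 11-13 hpf. The counts were 10 and 1 of 23 in cluster 1, 2 and 1 of 41 in cluster 2 and 8 and 2 of 17 in cluster 6. In cluster 5, 5 of 20 fell and 10 of 20 were higher at 11-13 hpf, with a median log2 ratio of 0.65 for the second step against 0.52 in clusters 3 and 4. These profiles also defined the clusters, and no difference between them was tested.

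Ets1 (KY.Chr10.606, listed as Ets1/2.b), of the family that carries FGF-MAPK signals to Foxf in this lineage, had more UMIs than any other of the 31 (levels are 3′-end counts and were not divided by transcript length). It measured 352, 321, 178, 137, 493, 731, 641 and 464 CPM from 6 to 13 hpf in cells under 1%. Of the ages with at least 20 cells (7 and 10 to 13 hpf), 11 hpf was the highest and 7 hpf the lowest. In cells under 3% with at least 10 pair UMIs it measured 615, 849.7, 339, 188, 449.8, 728, 643 and 465 CPM, so that 7 hpf there was the highest value of the series. The ratio of 9-10 to 6-8 hpf was accordingly 1.75 (1.51 to 2.02) in the cells under 1% and 0.617 (0.582 to 0.655) in the second class, so that it fell by over 1.5-fold in the second class and not in the first. The other Ets gene, Elf4 (KY.Chr14.539), was much rarer, with 27.4, 13.7, 10.47, 15.3, 7.86, 17.1, 14.09 and 11.6 CPM over the same ages. Of the ages with at least 20 cells 10 hpf was the lowest, and its window ratios were 0.492 (0.241 to 1.05) for the fall and 1.83 (1.14 to 3.06) for the return. Irf2 (KY.Chr14.407), whose vertebrate counterparts regulate interferon responses, measured 77.6, 41.0, 20.9, 76.3, 23.6, 56.7, 57.0 and 64.0 CPM. It was low at 10 hpf and more than 1.5-fold higher at each later age, and its 9 hpf value rests on 5 UMIs in 5 cells.

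The forkhead factors rebounded in part. Foxn3 (KY.Chr3.371, Foxn2/3), a repressor in vertebrates, fell and returned in both classes, with 283, 263, 129, 61.1, 120.3, 201, 218 and 265 CPM in cells under 1%. Its windows were 220.5, 119 and 223 CPM, a fall of 1.85-fold and a return ratio of 1.87 (1.66 to 2.12). In the second class it measured 326, 276, 219, 66.8, 121, 202, 218 and 263 CPM, lowest at 9 and 10 hpf. Foxp4 (KY.Chr7.474, Foxp), a forkhead repressor, had the largest return ratio of all 31, 2.51 (1.57 to 4.17), but the level was low, 4.57, 10.25, 0, 15.3, 7.52, 18.2, 19.2 and 21.3 CPM. With 4 UMIs in the 6-8 hpf window its fall could not be measured in cells under 1%, whereas in the second class the windows were 17.5, 7.25 and 19.4 CPM and the ratio of 9-10 to 6-8 hpf was 0.414 (0.262 to 0.639). Foxh1 (KY.Chr14.65, Foxh.b), the forkhead partner of Smad proteins in Nodal signalling, had the deepest fall, 3.68-fold, and no return. It measured 22.8, 202, 171, 15.3, 39.0, 27.8, 17.3 and 18.7 CPM in cells under 1%. The early level came from a few sparsely barcoded cells: 99.1% of its 7 and 8 hpf UMIs lay in cells with fewer than 10 pair UMIs, and 79 of 108 lay in 2 cells. In the second class it measured 20.5, 10.1, 8.01, 4.04, 19.2, 27.1, 16.7 and 18.1 CPM, with no high early value.

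**Figure D2:**
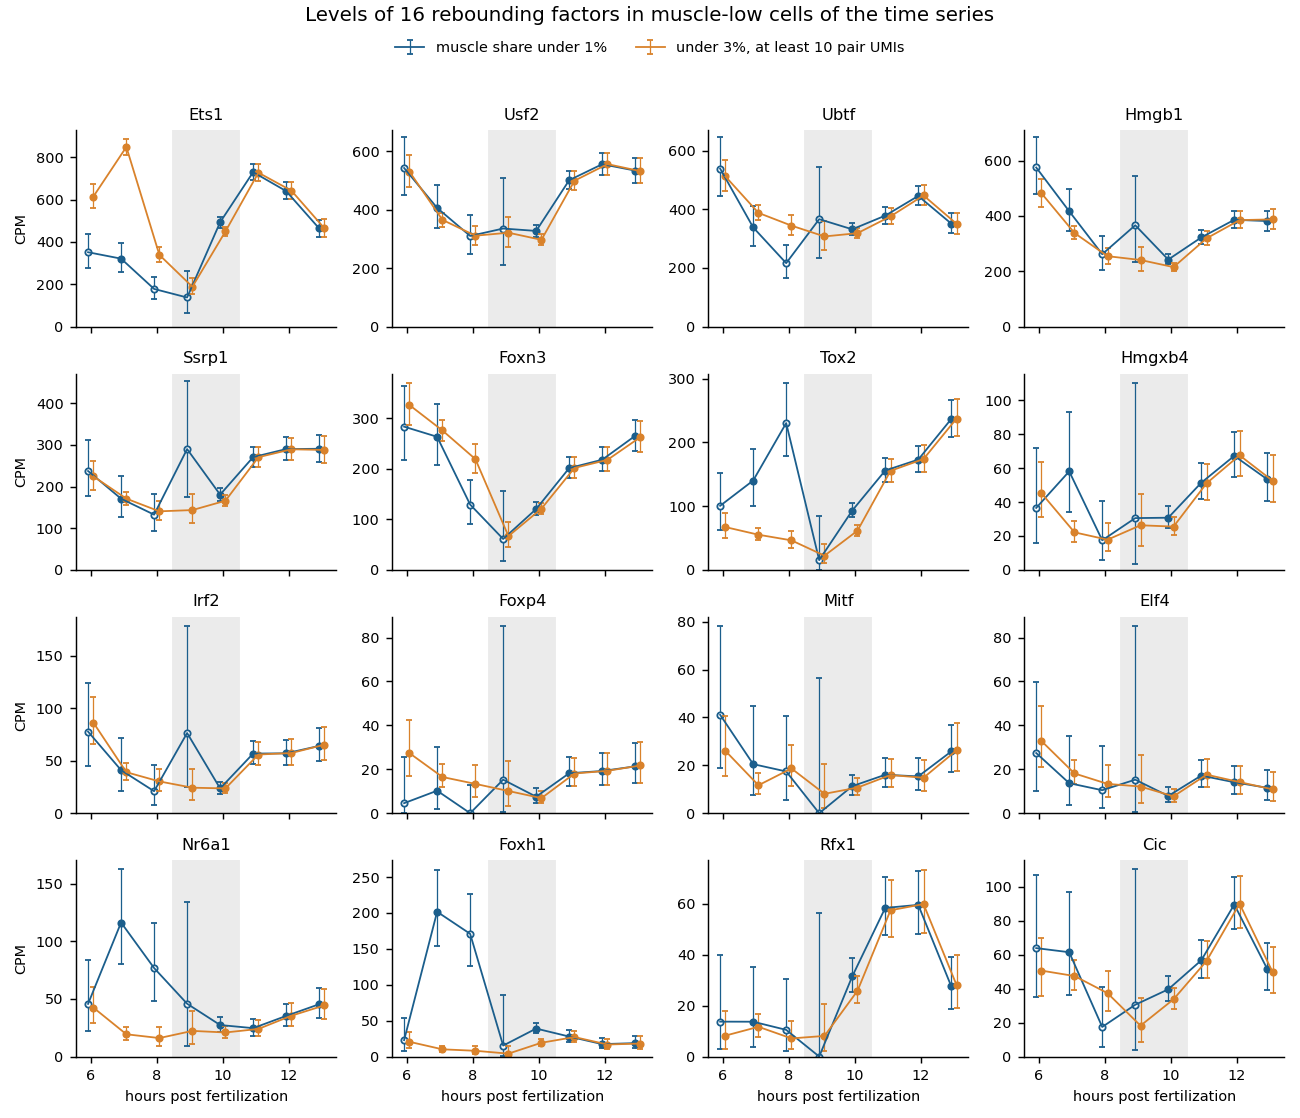
CPM of 16 of the factors from 6 to 13 hpf, in cells under a 1% muscle share (blue) and in cells under 3% with at least 10 barcode pair UMIs (orange), with 95% counting intervals. Open points rest on fewer than 20 cells and grey bands mark 9-10 hpf. Early levels of Ets1, Tox2, Nr6a1 and Foxh1, among others, differ between the classes, Ets1 reaching 850 CPM at 7 hpf in the second class and 321 CPM in the first.

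Among the chromatin-associated factors, the HMG-box gene Hmgb1 (KY.Chr14.924, Hmg1/2), an abundant DNA-bending protein, measured 575, 417, 262, 366, 242, 322, 386 and 382 CPM in cells under 1%. Of the ages with at least 20 cells it was highest at 7 hpf and lowest at 10 hpf, and its windows of 405, 245 and 359 CPM gave a fall of 1.65-fold and a return ratio of 1.47 (1.34 to 1.60). Ubtf (KY.Chr2.1521), the HMG-box factor of ribosomal RNA gene transcription by RNA polymerase I, measured 539, 338, 216, 366, 332, 378, 446 and 351 CPM. Its window ratios, 0.952 (0.832 to 1.09) and 1.19 (1.10 to 1.28), passed 1.5-fold in neither direction. Ssrp1 (KY.Chr3.1078), a subunit of the FACT histone chaperone, measured 237, 171, 133, 290.1, 181, 271, 290.1 and 291 CPM. It did not fall at 9-10 hpf, with a ratio of 1.04 (0.866 to 1.27), and was higher at 11, 12 and 13 hpf by a window ratio of 1.54 (1.39 to 1.71). Supt16, the other FACT subunit, stood at 67.6, 83.2 and 149.5 CPM in the 3 windows.

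Hmgb3 (KY.Chr5.1054, Hmgtun2), a further DNA-bending protein, measured 119, 85.4, 97.7, 76.3, 139, 155, 174 and 181 CPM, each age after 10 hpf being above the one before, and its 9-10 hpf level was above that at 6-8 hpf by a ratio of 1.39 (1.09 to 1.79). Hmgxb4 (KY.Chr8.597), an HMG-box domain protein, measured 36.5, 58.1, 17.4, 30.5, 30.8, 51.4, 67.2 and 53.4 CPM and returned by 1.86 (1.46 to 2.39). Tox2 (KY.Chr3.766, Tox), of a small HMG-box family, measured 100.5, 140.1, 230.2, 15.3, 92.9, 156, 173 and 237 CPM. Of the ages with at least 20 cells 13 hpf was the highest, and it returned by 1.99 (1.73 to 2.29) after a fall of 1.77-fold. In the second class Tox2 measured 67.1, 55.1, 46.3, 22.2, 61.5, 155, 174 and 237 CPM, with window levels of 54.8, 56.8 and 182 CPM, so there it rose late without a fall. In cells under 1%, 89.7% of its 7 and 8 hpf UMIs lay in cells with fewer than 10 pair UMIs.

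The HMG-domain factors Sox4 and Cic returned without a fall of 1.5-fold. Sox4 (KY.Chr7.659, Sox4/11/12), a SoxC factor of progenitor cells, measured 45.7, 78.6, 66.3, 15.3, 62.5, 99.02, 96.7 and 99.6 CPM, with similar values at 11, 12 and 13 hpf that were all above 10 hpf. Cic (KY.Chr4.472, Capicua), a repressor relieved by MAPK signalling, measured 63.9, 61.5, 17.4, 30.5, 39.6, 56.7, 89.6 and 51.6 CPM and peaked at 12 hpf. Slc25a26 (KY.Chr1.127, listed as Hmg20) measured 73.1, 75.2, 27.9, 61.1, 35.2, 38.5, 35.9 and 39.1 CPM. It fell by 1.61-fold and stayed low, with a return ratio of 1.06 (0.825 to 1.36).

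The bHLH and bZIP factors were led by Usf2 (KY.Chr3.1438, Usf), a ubiquitous E-box binding factor and the gene with most UMIs of the 31 after Ets1. It measured 543, 407, 310.5, 336, 328, 502, 556 and 534 CPM. The levels of 11, 12 and 13 hpf were all above that of 10 hpf, with a window ratio of 1.61 (1.496 to 1.74). Srebf2 (KY.Chr9.7), a regulator of sterol synthesis genes, measured 54.8, 64.9, 87.2, 107, 52.6, 68.0, 66.0 and 70.3 CPM and passed 1.5-fold in neither direction. Arnt (KY.Chr5.617), the common dimer partner of bHLH-PAS proteins, measured 54.8, 30.8, 24.4, 45.8, 31.4, 47.1, 38.4 and 43.6 CPM, with the same outcome. Mitf (KY.Chr10.837), which in vertebrates controls pigment cell genes, was rare, with 41.1, 20.5, 17.4, 0, 11.3, 16.1, 15.4 and 25.8 CPM. Its windows of 25.1, 11.03 and 18.2 CPM gave a fall of 2.27-fold and a return ratio of 1.65 (1.09 to 2.55).

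Cebpe (KY.Chr3.744), a C/EBP-type bZIP factor, measured 32.0, 23.9, 52.3, 61.1, 26.3, 39.1, 43.5 and 32.0 CPM and passed 1.5-fold in neither direction in cells under 1%, although in the second class its ratios were 0.648 (0.503 to 0.831) and 1.54 (1.200 to 1.98). Mafk (KY.Chr12.534), a small Maf protein without an activation domain of its own, had 129 UMIs in all and window levels of 13.8, 12.70 and 17.6 CPM. Its counting intervals included 1 in both directions.

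Pknox2 (KY.Chr11.941), a TALE homeodomain factor related to Meis, measured 32.0, 41.0, 20.9, 0, 21.2, 38.5, 32.0 and 31.1 CPM. It fell and returned, with ratios of 0.662 (0.410 to 1.10) and 1.66 (1.232 to 2.27), although the first interval includes 1. Meis1, a further TALE factor outside the 2 clusters, stood at 127, 121 and 267 CPM in the windows.

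Rfx1 (KY.Chr5.751, Rfx1/2/3), of the winged-helix family known for control of cilium genes, did not dip. It measured 13.7, 13.7, 10.47, 0, 31.4, 58.3, 59.5 and 27.6 CPM, rising into 11 and 12 hpf and lower again at 13 hpf, and its 9-10 hpf level was above that at 6-8 hpf by a ratio of 2.45 (1.28 to 5.29). Tfdp1 (KY.Chr1.10), the dimer partner of E2F proteins, measured 206, 154, 80.2, 275, 116, 153, 177 and 174 CPM, with a return ratio of 1.39 (1.2 to 1.58). E2f3, one such E2F protein, stood at 73.9, 161 and 199 CPM in the windows and so did not fall.

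Nr6a1 (KY.Chr1.1411), an orphan receptor related to germ cell nuclear factor, measured 45.7, 116, 76.8, 45.8, 27.3, 24.6, 35.2 and 45.4 CPM in cells under 1%. It fell by 2.98-fold, but 96.4% of its 7 and 8 hpf UMIs lay in cells with fewer than 10 pair UMIs. In the second class it measured 42.5, 19.3, 16.02, 22.2, 20.9, 23.9, 35.4 and 44.4 CPM, and the ratio of 9-10 to 6-8 hpf was 0.941 (0.696 to 1.27). Nr1h4 (KY.Chr2.1300), whose vertebrate counterpart is a bile acid receptor, had 129 UMIs in all and windows of 8.77, 13.7 and 17.8 CPM. Smad4 (KY.Chr6.342), the common mediator of TGF-beta and BMP signals, measured 36.5, 17.1, 17.4, 30.5, 18.4, 24.6, 31.4 and 34.7 CPM and returned by 1.57 (1.14 to 2.19). Nfkb1 (KY.Chr7.414), the Rel-domain factor of inflammatory signalling in vertebrates, measured 132, 113, 115, 137, 109, 122, 132 and 140.5 CPM, within a range of 109 to 140.5 CPM.

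A list of 18 partners of these factors was counted alongside. In cells under 1%, 3 of 18 fell at 9-10 hpf, 4 were higher at 11-13 hpf and none did both, where 3076, 1964 and 589 of 9532 genes did. In the second class 3 of 18 fell, 7 were higher at 11-13 hpf and 1 did both, where 25.9%, 26.6% and 6.85% of 9909 genes did. The difference from the factors was not tested. The 6 S-phase genes (Pcna and Mcm2 to Mcm6) had a median log2 ratio of 1.39 between 9-10 and 6-8 hpf, and none fell.

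In cells at or above a 1% muscle share most factors declined at both steps, as most genes did. Their windows held 373, 275 and 48 cells, and 26 of 31 factors were lower at 9-10 than at 6-8 hpf by over 1.5-fold, against 57.2% of 9369 genes. Only Foxp4, with 12 and 7 UMIs, was higher at 11-13 hpf by that measure (7.64% of genes). The median log2 ratios of the factors were -1.08 and -1.0, beside -0.73 and -0.93 over all genes, of which 1504 of 9369 were above their 9-10 hpf level at 11-13 hpf. Ets1 measured 724, 729.6, 269.7, 148, 127, 51.3, 29.9 and 52.7 CPM from 6 to 13 hpf in these cells. Hmgb1 measured 424, 317, 229, 180.3, 107, 43.3, 24.5 and 17.6 CPM and Usf2 493, 341, 248, 228, 99.1, 57.7, 35.4 and 46.9 CPM over the same ages. At 12 hpf these 3 factors stood at 29.9, 24.5 and 35.4 CPM in the muscle-rich cells and at 641, 386 and 556 CPM in the cells under 1%. Foxn3 measured 334, 265, 195, 109, 116, 69.0, 32.6 and 35.1 CPM, so that it too declined without a return. The muscle-rich sums of 12 and 13 hpf rest on 14 and 7 cells. The make-up of this class also changed with age. It held 90.2%, 88.4% and 91.4% of the assigned cells at 7, 8 and 9 hpf, and 48.3% at 10 hpf. Its median of the TVC markers was 156, 338 and 1685 CPM at 7, 8 and 9 hpf, and 54.0 CPM at 10 hpf. The declines therefore need not follow 1 cell type, and the part of this shift was not tested.

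In control embryos of the CRISPR libraries, which the clustering did not use, the factors were measured in progenitors (under 1%) and muscle cells (1% or more) of the same embryos. The 2 repeats held 36 and 73 control progenitors and 37 and 96 control muscle cells. TVC markers summed to 10623 and 11805 CPM in progenitors and to 130 and 217 CPM in muscle cells, and muscle markers to 2297 and 1896 CPM in progenitors and to 55046 and 54407 CPM in muscle cells. The 5 markers of other cell types summed to 211 and 139 CPM in progenitors, each above 0, and to 4.02 and 6.38 CPM in muscle cells, with 3 of 5 above 0, and both of the 2 that could be tested were higher in progenitors. Their part in the factors' difference was not tested. UMIs were summed per repeat and class and tested with edgeR's quasi-likelihood test over 7685 genes, a gene being called where its adjusted p (Benjamini-Hochberg) was below 0.05 and its log2 fold change exceeded 0.5 in size. The labels name the libraries as repeats without saying that they came from separate cultures or animals, so p-values measure only the spread between these sums.

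With TMM scaling, 14 of 31 factors were higher in progenitors (19% of all genes) and 1, Srebf2, was lower (19.5%). All 31 passed the filter on low counts in this fit, whereas 23 did in muscle cells alone. The rest entered the contrast through their progenitor counts, which favoured a higher value in progenitors in advance. The 14 calls were not divided by this filter, so some of them may rest on it. The median log2 fold change was 0.92 over the factors and 0.06 over all genes. Scaling to library totals instead moved the median of all genes to 1.42 and that of the factors to 2.26, and then 29 factors were higher (71% of genes) and none lower. The TMM factors were 1.53 to 1.63 in progenitor sums and 0.586 to 0.71 in muscle sums. The CPM printed next are on library totals and the fold changes on the TMM scale. DESeq2 called 9 of the 15, and edgeR called 8 factors without control muscle repeat 2 and 11 to 13 without another control sum.

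Ets1 and 4 of the 9 HMG-domain factors (Hmgb1, Hmgb3, Hmgxb4 and Tox2) were called in every alternative analysis, as were Rfx1 and Usf2, while the HMG-domain factors Ubtf, Ssrp1, Sox4 and Cic were called only with library totals. Ets1 had 924 and 899 CPM in control progenitors of repeats 1 and 2, against 129 and 122 CPM in control muscle cells, a log2 fold change of 1.49 ± 0.20 (SE, adjusted p = 2.10e-05). Hmgb1 had 628 and 614 CPM in progenitors and 82.4 and 88.3 CPM in muscle cells, or 1.49 ± 0.22 (SE, adjusted p = 7.16e-05). The classes did not overlap for either gene, and each was called in all 14 alternative analyses. Hmgb3 had 218 and 224 CPM in progenitors and 32.1 and 34.5 CPM in muscle cells, or 1.36 ± 0.27 (SE, adjusted p = 0.000777). Hmgxb4 had 54.6 and 54.4 CPM in progenitors and 1.004 and 6.06 CPM in muscle cells, or 2.23 ± 0.47 (SE, adjusted p = 0.00137). Its muscle value in repeat 1 rests on very few UMIs. Tox2 had 94.1 and 100 CPM in progenitors and 5.02 and 13.40 CPM in muscle cells, or 1.85 ± 0.42 (SE, adjusted p = 0.00258). These 3 were also called under every alternative, whereas Slc25a26, with 45.5 and 48.0 CPM in progenitors, 8.04 and 8.61 CPM in muscle cells and 1.109 ± 0.32 (SE, adjusted p = 0.0132), was lost in 5 of 14.

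Rfx1 and Hmgxb4 had the largest fold changes among the called factors, over muscle levels of at most 6.38 CPM in either repeat. Muscle levels this low leave the size of these fold changes uncertain. Rfx1 had 81.9 and 66.4 CPM in progenitors and 4.02 and 6.38 CPM in muscle cells, or 2.33 ± 0.47 (SE, adjusted p = 0.000913). Usf2 had 229 and 213 CPM in progenitors and 36.2 and 37.3 CPM in muscle cells, or 1.22 ± 0.19 (SE, adjusted p = 0.000125). Both calls held under all 14 alternatives. Tfdp1 had 83.5 and 78.4 CPM in progenitors and 13.1 and 14.99 CPM in muscle cells, or 1.13 ± 0.26 (SE, adjusted p = 0.00251), a call lost without muscle repeat 2. Pknox2 had 37.9 and 36.0 CPM in progenitors and 4.02 and 4.15 CPM in muscle cells, or 1.79 ± 0.46 (SE, adjusted p = 0.00567), and this call was lost with DESeq2 and without muscle repeat 2.

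Nr6a1 had 78.9 and 77.6 CPM in progenitors and 10.04 and 15.3 CPM in muscle cells, or 1.18 ± 0.35 (SE, adjusted p = 0.0139), and was lost in 4 of 14 alternatives. Nr1h4 had 16.7 and 13.6 CPM in progenitors and 1.004 and 1.59 CPM in muscle cells, or 1.98 ± 0.75 (SE, adjusted p = 0.0470), and was lost in 9. The muscle values of the last gene rest on 1 and 5 UMIs. Srebf2 had 80.4 and 102 CPM in progenitors and 103 and 94.1 CPM in muscle cells, which overlap, so its call of -1.46 ± 0.29 (SE, adjusted p = 0.000882) exists only on a scale relative to other genes and was lost with library totals, where the log2 fold change was -0.08. Among the 16 factors not called were Foxn3 (-0.02 ± 0.18 (SE, adjusted p = 0.938)), Ubtf (0.23 ± 0.17 (SE, adjusted p = 0.324)), Ssrp1 (0.23 ± 0.20 (SE, adjusted p = 0.379)) and Foxp4 (1.61 ± 0.68 (SE, adjusted p = 0.0758)).

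**Figure D3:**
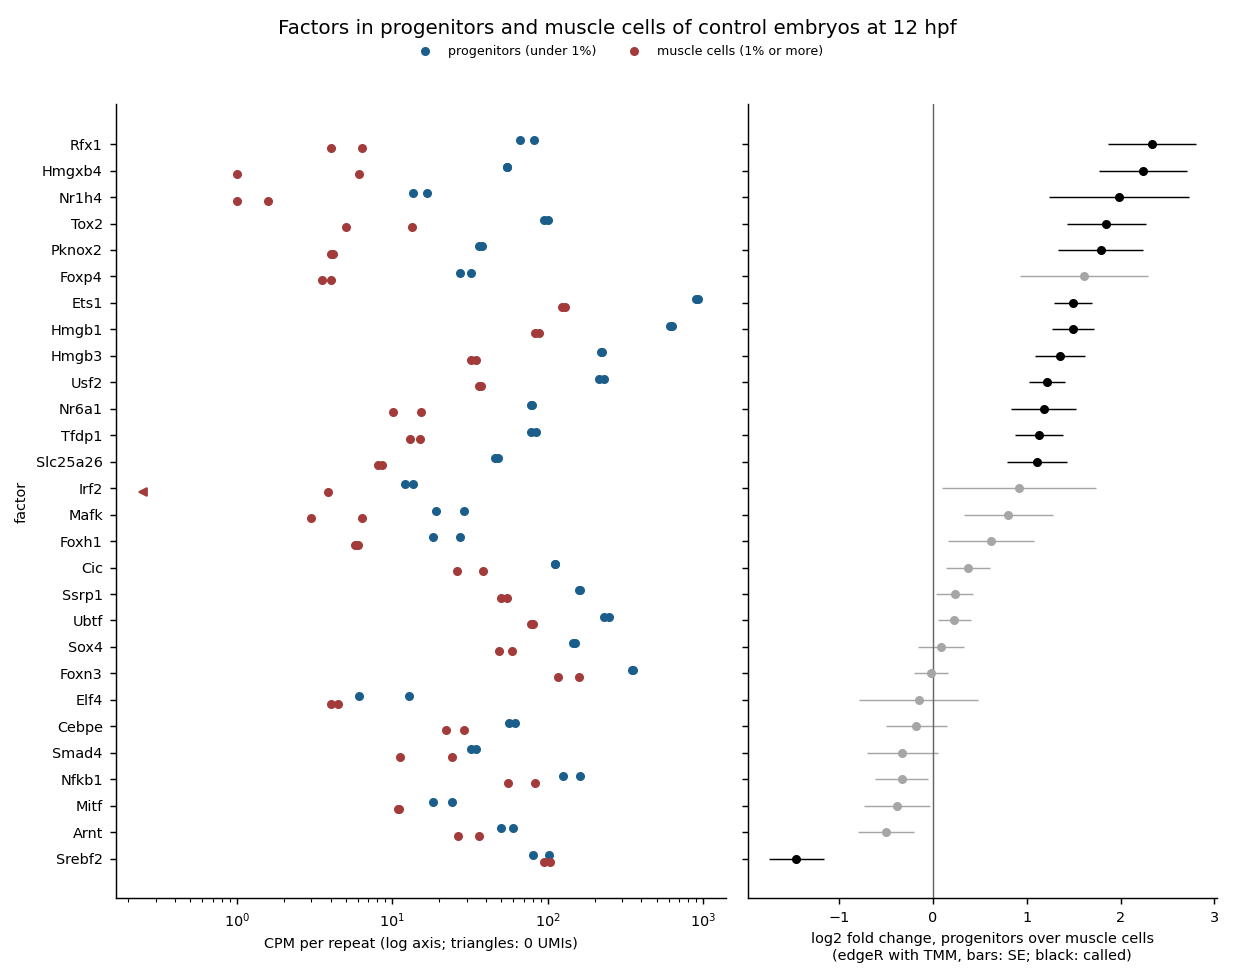
Left, CPM of 28 of the factors in progenitors (blue) and muscle cells (red) of control embryos at 12 hpf, 1 point per repeat on a log axis (a triangle marks 0 UMIs). Right, log2 fold change of progenitors over muscle cells from edgeR with TMM scaling, bars showing the SE; the 13 called factors among them are black and of these only Srebf2 lies below 0.

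Of the 18 partner genes, 4 were higher in progenitors (E2f3, Supt16, Polr1b and Polr1e) and 3 lower (Meis1, Hif1a and the second Foxh1 gene, KY.Chr9.672). Over all 7685 genes 19% were higher and 19.5% lower, so the partner counts lay near those shares. Supt16 was thus higher by 2.14 ± 0.24 on the log2 scale (SE, adjusted p = 3.96e-06) and E2f3 by 2.60 ± 0.25 (adjusted p = 6.92e-07), E2f3 being a partner of Tfdp1. The 6 S-phase genes were all higher in progenitors, with a median log2 fold change of 2.44.

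The targeted genes were checked in the CRISPR progenitors before the factors. Foxf stood at 66.4 and 144.5 CPM in Foxf CRISPR progenitors of repeats 1 and 2, against 540.1 and 440.0 CPM in control progenitors, a log2 fold change of -2.06 (adjusted p = 0.0067 by edgeR). Gata4/5/6 stood at 88.1 and 66.0 CPM in Gata4/5/6 CRISPR progenitors, against 214 and 229.6 CPM in control, or -1.57 (adjusted p = 0.0579 by edgeR and 0.0211 by DESeq2). Foxtun4 stood at 109.5 and 68.4 CPM in Foxtun4 CRISPR progenitors, against 305 and 280.0 CPM in control, or -1.85 (adjusted p = 0.153 by edgeR and 0.00653 by DESeq2). Each targeted gene was thus lower under its own label in both repeats, although the counts come from 3′ ends and do not show whether a deletion was present. The falls were not particular to the matching label. In Foxf CRISPR progenitors Gata4/5/6 stood at 44.3 and 54.8 CPM and Foxtun4 at 110.6 and 175.6 CPM. The sums held 17 and 48 cells for Foxf CRISPR, 14 and 37 for Gata4/5/6 CRISPR, 6 and 29 for Foxtun4 CRISPR and 36 and 73 for control.

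None of the 30 factors tested was called in Foxf CRISPR progenitors, where edgeR called 114 of 6991 genes (1.63%) and DESeq2 called 98 genes and no factor. An unadjusted p under 0.05 was reached by 2 of the 30 factors and by 694 of 6991 genes. The median log2 fold change of the factors was 0.02, as over all genes, and 16 lay above 0 and 14 below. In the same contrast 4 of the 6 TVC markers, the targeted Foxf among them, were lower and 1 of the 7 muscle markers was higher. TVC markers summed to 6347 and 7606 CPM in Foxf CRISPR progenitors, against 10623 and 11805 CPM in control, and muscle markers to 4359 and 3489 CPM, against 2297 and 1896 CPM in control. The part of this difference in the factors' values was not tested.

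The lowest fold changes in Foxf CRISPR progenitors were those of Tox2 and Foxp4. Tox2 had 44.3 and 48.6 CPM in Foxf CRISPR progenitors and 94.1 and 100 CPM in control progenitors, a log2 fold change of -0.99 ± 0.28 (SE, adjusted p = 0.157). The 2 Foxf sums lay below both control sums, yet the adjusted p missed the threshold, and DESeq2 gave an adjusted p of 0.811. Foxp4 had 14.8 and 14.9 CPM in Foxf CRISPR and 31.9 and 27.2 CPM in control progenitors, or -0.91 ± 0.51 (SE, adjusted p = 0.669). Sox4, the second factor past an unadjusted 0.05, had 166 and 249 CPM in Foxf CRISPR and 146 and 149.6 CPM in control progenitors, or 0.58 ± 0.23 (SE, adjusted p = 0.401). For Ets1 the values were 538 and 767 CPM in Foxf CRISPR and 924 and 899 CPM in control, or -0.41 ± 0.20 (SE, adjusted p = 0.577). Of the partner list, Meis1 was called lower in Foxf CRISPR progenitors, at -1.21 ± 0.24 (SE, adjusted p = 0.0316 by edgeR).

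**Figure D4:**
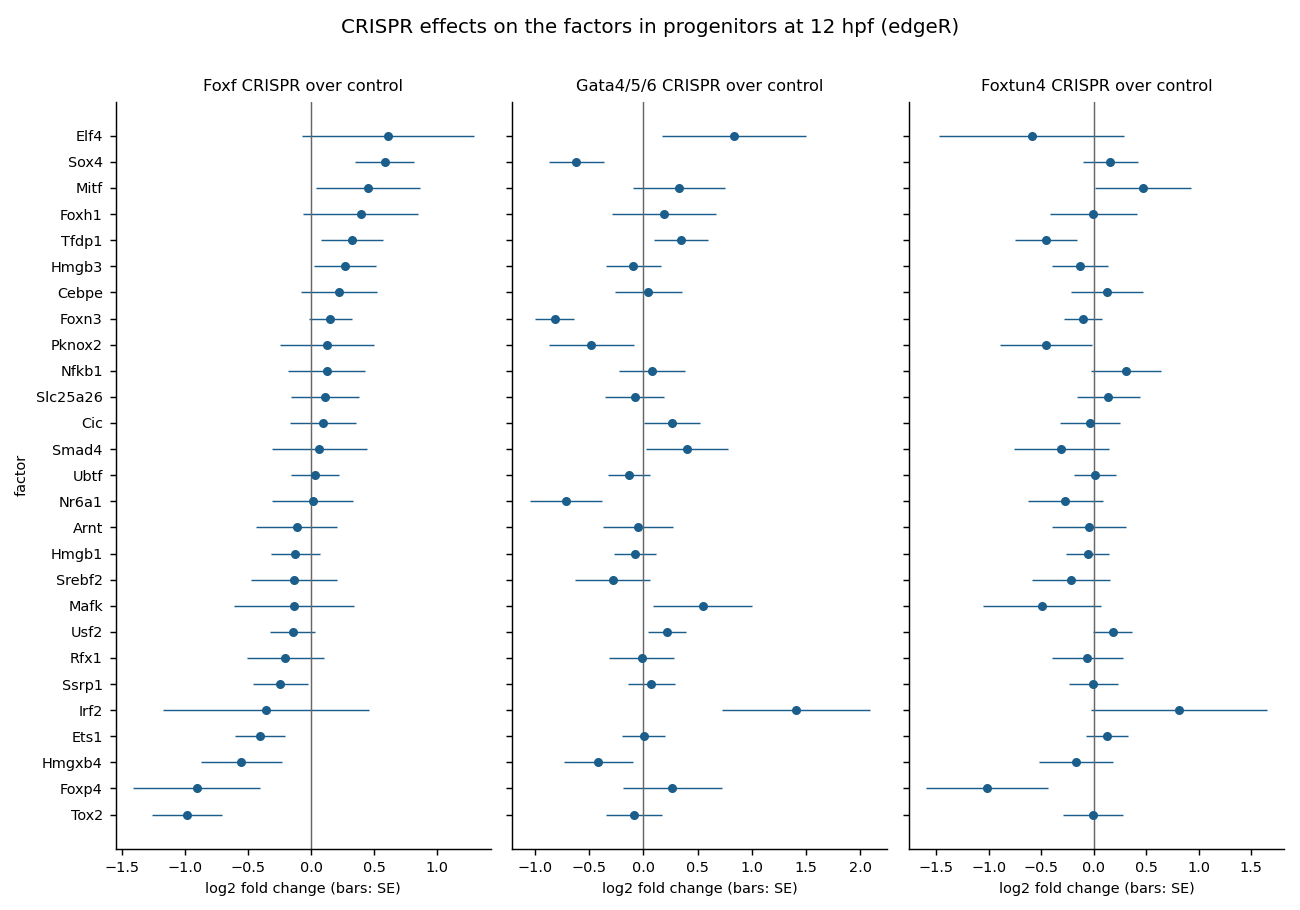
Log2 fold changes (bars: SE) of 27 of the tested factors in Foxf, Gata4/5/6 and Foxtun4 CRISPR progenitors over control progenitors at 12 hpf, from edgeR on 2 repeats, ordered by the Foxf contrast. No factor passed the adjusted threshold in any panel; Tox2, at -0.99, is the lowest in the Foxf panel.

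In Gata4/5/6 CRISPR progenitors edgeR called 3 of 6991 genes (0.0429%) and none of the 30 factors, as did DESeq2 for the factors, and an unadjusted p under 0.05 was reached by 2 factors and by 272 of 6991 genes. Foxn3 had 199 and 201 CPM in Gata4/5/6 CRISPR and 349 and 354 CPM in control progenitors, or -0.82 ± 0.18 (SE, adjusted p = 0.306) by edgeR. Sox4 had 119 and 81.0 CPM in Gata4/5/6 CRISPR and 146 and 149.6 CPM in control, or -0.62 ± 0.25 (SE, adjusted p = 0.9999), opposite in sign to its value in Foxf CRISPR. The contrasts share the control sums, and the difference between them was not tested. In Foxtun4 CRISPR progenitors no gene of 6991 (0%) and no factor was called by edgeR, none of the factors and 207 genes had an unadjusted p under 0.05, and DESeq2 called 4 genes and no factor. The lowest factor there was Foxp4, with 0 and 17.6 CPM in Foxtun4 CRISPR and 31.9 and 27.2 CPM in control progenitors, and repeat 1 of Foxtun4 held 6 cells.

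In muscle cells 23 of the 31 factors were tested, and none was called in any of the 3 contrasts, where edgeR called 0% of 6393 genes in each. DESeq2 also called none, and 1, 0 and 0 factors had an unadjusted p under 0.05 in Foxf, Gata4/5/6 and Foxtun4 CRISPR, as did 241, 101 and 151 genes. That factor was Foxn3, with 232 and 187 CPM in Foxf CRISPR muscle cells and 116 and 159.5 CPM in control muscle cells. Over all genes the Gata4/5/6 count in muscle cells was 9 and 22 without Gata4/5/6 repeat 1 and 2, and without a filter on low counts the Foxf, Gata4/5/6 and Foxtun4 counts were 113, 49 and 22 genes. The test of whether the Foxf effect differed between progenitors and muscle cells called none of the 31 factors and 0% of 7685 genes by edgeR. At an unadjusted p under 0.05 it gave 512 genes and 2 factors, Nr1h4 and Hmgxb4, with differences of -3.37 ± 1.31 (SE, adjusted p = 0.604) and -1.81 ± 0.71 (SE, adjusted p = 0.612), and DESeq2 called no factor and 12 genes. Standard errors of the factors in the Foxf contrast ran from 0.17 to 0.82 on the log2 scale. Tox2 in Foxf CRISPR progenitors was estimated to change by more than 1.5-fold and was not called. The absence of calls therefore does not exclude changes of that size.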

How the data were processed

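Single-cell 3′ RNA libraries of sorted B7.5-lineage cells were used, 1 time series and 2 CRISPR repeats. The values are counts, raw UMIs per gene and cell barcode in the matrices the authors deposited, made with Cell Ranger 3.0.1 per the labels' processing notes, against KY2019 gene models to which 21 sample barcode sequences had been added. No authors' cell assignments were used. In the time series, cells between the 1st and 99th percentile of genes per cell were kept. No such limit was set on the CRISPR libraries. Assignment to a barcode pair required a UMI of each of its 2 barcodes and a share of 75% or more for that pair among the UMIs of mapped pairs. Cells with mixed pairs were thereby left out, and no other doublet filter was applied. Which pair stood for which age or condition was taken from keys to the study's supplementary figures, not from the labels, and the Foxtun4 pair bears the name FoxG in one of these keys.

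UMIs were summed over cells and divided by all gene UMIs of the class (CPM). Exact Poisson intervals for levels and conditional binomial intervals for ratios, both at 95%, cover counting error only. The time series is 1 library, so no test was made over ages. CRISPR sums were made for each condition, class and repeat (no sum under 5 cells) and tested with edgeR 4.0.16 (quasi-likelihood test, TMM, filter on low counts), with DESeq2 1.42.0 as an alternative. All 8 sums of a class were fitted together, and all 16 sums for the class contrast and the interaction. The libraries held 39762547, 5299026 and 14905325 gene UMIs. Repeat numbers were checked for pairing: deviations from the condition means correlated between -0.265 and 0.0819 across conditions in progenitors and between -0.14 and 0.248 in muscle cells, so repeats were not paired. The counting intervals and the edgeR test of Foxf CRISPR progenitors were run on simulated data. The changes simulated for that test were larger than that of Tox2, so the check does not bear on changes of its size.

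The factors, gene lists and tests were chosen with earlier results of these data known. Of the 31 factors, 3 are not reported here by name, in the text or in plots, and are counted only in totals and medians. Values at every age were given for the other factors with at least 200 UMIs, and for the 5 with the deepest fall, the largest return or the highest level. Values per CRISPR sum were given for factors called in any contrast and for those of the 3 largest absolute fold changes in the Foxf contrast. Foxn3, Sox4 and Ets1 in CRISPR cells, and Foxp4 in Foxtun4 CRISPR, were added after their values were seen. Python 3.11.15, numpy 2.4.6, scipy 1.17.1, pandas 2.3.3, matplotlib 3.10.9, R 4.3.3 and limma 3.58.1 were used.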

Additional observations from a re-analysis of the deposited data

Results flagged for a closer look

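UMIs of the factors were also counted in cells outside the ages and classes compared above. Summed over the 31 factors, the level was 4961 CPM in the 8 cells of 5 hpf and 3984 CPM in the 13 cells of 14 hpf, against 3542 CPM in the cells under 1% from 6 to 13 hpf. It was 2255 CPM in the 1117 cells under 1% to which no age could be given. The paper attributes its clusters without barcodes to sorted cells from outside the B7.5 lineage, so these cells need not belong to it. Foxh1 alone stood at 111 CPM in the cells with no age and at 39.3 CPM in those with one.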

How the results depend on the processing

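The number of factors that fell and returned in cells under 1% was 6 (6.18% of genes). It was 1 (4.98%) with a muscle share limit of 0.5% and 2 (4.16%) with 8 hpf alone as the early window. TMM scaling of the windows gave 3 (4.5%) and a threshold of 2-fold gave 0 (1.97%). Without a limit on muscle share, chosen after seeing the data, the number was 14 (12.4%). The ratio of 9-10 to 6-8 hpf reversed for Foxh1 with a pair share of at least 90% (log2 0.52), with at least 10 pair UMIs (0.063) and in cells under 3% with at least 10 pair UMIs (0.62). It reversed for Irf2 with an unweighted mean of time points (0.10), 9 hpf alone (0.80) and 8 hpf alone as the early window (0.24), for Slc25a26 with 9 hpf alone (0.084) and 8 hpf as the early window (0.36), and for Tox2 in cells under 3% without (0.067) and with (0.050) the limit of 10 pair UMIs. With 9 hpf alone, 5 cells, the return reversed for Irf2 (-0.38), Elf4 (-0.053), Smad4 (-0.053) and Ssrp1 (-0.0388). The cause of these changes was not tested.

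No factor was called in the CRISPR contrasts with the exception of Tox2 in Foxf CRISPR progenitors (1 call) without a filter on low counts and with a limit of 0.5%, and of Foxn3 in Gata4/5/6 CRISPR progenitors (1 call) without a filter. Leaving out 1 sum at a time gave 0 to 0 factors in each CRISPR contrast and in the interaction. Over all genes the Foxf count of 114 was 408 without a filter, 186 without the cell barcodes shared between repeats (chosen after seeing the data), 172 and 279 without Foxf repeat 1 and 2, and 47 and 20 without control repeat 1 and 2. The Gata4/5/6 count of 3 was 126 without a filter, 16 with a limit of 0.5%, 12 with DESeq2 and without shared cell barcodes, 1 with at least 10 pair UMIs, and 0 without control repeat 1 or Gata4/5/6 repeat 2. The Foxtun4 count of 0 was 71 without a filter, and the interaction count of 0 was 228 without a filter and 117 without Foxf progenitor repeat 2. Of the 15 factors called between progenitors and muscle cells, DESeq2 called 9, library totals gave 29 (chosen after seeing the data), and leaving out 1 sum gave 8 to 13. With the replicate block 14 were called, and 0 in each other contrast. Limits of depth were the 5 cells under 1% at 9 hpf, the 6 Foxtun4 CRISPR progenitors of repeat 1, and the 6 factors with fewer than 200 UMIs.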
